A study of Mus musculus with 9 samples.

Results

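The coding genes of the cerebral cortex were compared between the C3H and B6 inbred strains of mice across the genome. Genes were chosen by their annotated type and their measured level. A gene was included when the deposited table marked it as protein-coding, its mean over the 6 mice was at least 1 FPKM (fragments scaled to gene length and library size) and it lay outside the stroke interval at about 36 to 78 Mb of chromosome 8. This gave 11550 of the 54532 genes of the table, from 22046 protein-coding ones. Of the rest, 10321 coding genes had a lower mean and 175 lay in the chromosome 8 interval. C57BL6/J (B6) and C3H/HeJ (C3H) each contributed brain cortex from 3 male mice aged 8 to 12 weeks, with no treatment named in the labels. WSB was sequenced beside them and enters here only in 1 alternative fit. The study maps stroke outcome to the chromosome 8 interval, and the comparison here asks which genes elsewhere differ between the parental cortices.

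The mean that selected the genes was taken over both strains together. The lowest genes included were Gm10134, Apool and Mylk at means of 1.0, 1.0 and 1.001 FPKM. Gchfr, which had 0.352 FPKM in B6 and 1.648 in C3H, was the highest one left out. The B6 mean was under 1 FPKM in 128 of the included genes and the C3H mean in 171. The former held 24 of the genes called different and the latter 30, which had to differ to be included at all.

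The cortex is a layered sheet of excitatory neurons and inhibitory interneurons, supported by astrocytes, oligodendrocytes and their precursors, microglia and the cells of the vessels. Neuronal transcripts make up much of its RNA, together with those for mitochondrial respiration and protein synthesis, on which firing and synaptic transmission depend. RNA from whole tissue carries all of these cells at once, so fewer cells of a type and less RNA per cell cannot be told apart.

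Each library held 17651630 to 21562429 reads on genes. No 2 mice of a strain were alike within counting noise, since chi-square per gene ranged from 7.29 to 22.04. The tissue label held for neurons, glia and vessels, whose marker sums were of similar size in all mice. Oligodendrocyte markers summed to 889 to 1220 FPKM over the 6 mice and interneuron markers to 1040 to 1350. Markers of neighbouring regions varied more. Summed choroid plexus markers ran from 65.4 to 767 FPKM in B6 and from 92.7 to 659 in C3H. Striatal markers summed to 492 ± 315 FPKM in B6 and 339 ± 153 in C3H (SD, n = 3). None of the genes of either list passed the test.

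Across the genome 507 of the 11550 coding genes differed between C3H and B6, which is 4.39%, against 4.64% of the 20602 genes tested of any kind. The test was limma on log2(FPKM + 0.1) with Benjamini-Hochberg adjustment over all genes tested and a threshold of 0.05. The calls split evenly, with 254 genes higher in C3H (2.20%) and 253 lower (2.19%). Most differences were moderate, with a median size of 0.66 on the log2 scale among called genes. More than 2-fold changes were found for 136 genes, 53 higher and 83 lower, and 187 stayed under 1.5-fold. The values of the strains did not overlap in 3899 genes (33.8%). An unadjusted p under 0.05 was found for 3351 genes.

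Of the 10 largest rises 8 had a near-identical copy elsewhere in the genome, as had 5 of the 10 largest falls, and these are described with their copies further on. The genes given first had none. Klk1b22, a kallikrein protease gene on chromosome 7 (44112673 to 44116922 on GRCm38), had no read in any B6 mouse and 77, 88 and 80 reads in the C3H mice. With a floor of 3 reads per library it was at least 28-fold higher in C3H. Pttg1, which encodes securin, the inhibitor of sister chromatid separation, stood at 11.39, 11.59 and 11.03 FPKM in B6 and at 0.2418, 0.2322 and 0.2576 in C3H. It had the largest fall of all, -5.06 ± 0.12 (SE, n = 3 per strain; limma adjusted p = 8.34e-07). Baiap2l1, which encodes a membrane-bending I-BAR protein, rose by 4.34 ± 0.32 and was itself uneven in C3H, at 6.959, 13.95 and 7.195 FPKM against 0.2655 to 0.5296 in B6. Cacng6, a calcium channel gamma subunit gene, was measured at 0.791, 1.152 and 0.8782 FPKM in B6 and at 8.995, 6.395 and 8.888 in C3H, a rise of 2.98 ± 0.19. Neither gene overlapped between strains. Some genes with copies rose by more than Cacng6. All 10 of the largest rises, and Cacng6, had a B6 mean under 1 FPKM. Among the largest falls Pttg1, Gm13306, H2-D1, Tmem267, Muc3a and Myo7a had a C3H mean under 1 FPKM. All of these were included only through the strain in which they were high, and so had to differ.

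**Figure D1:**
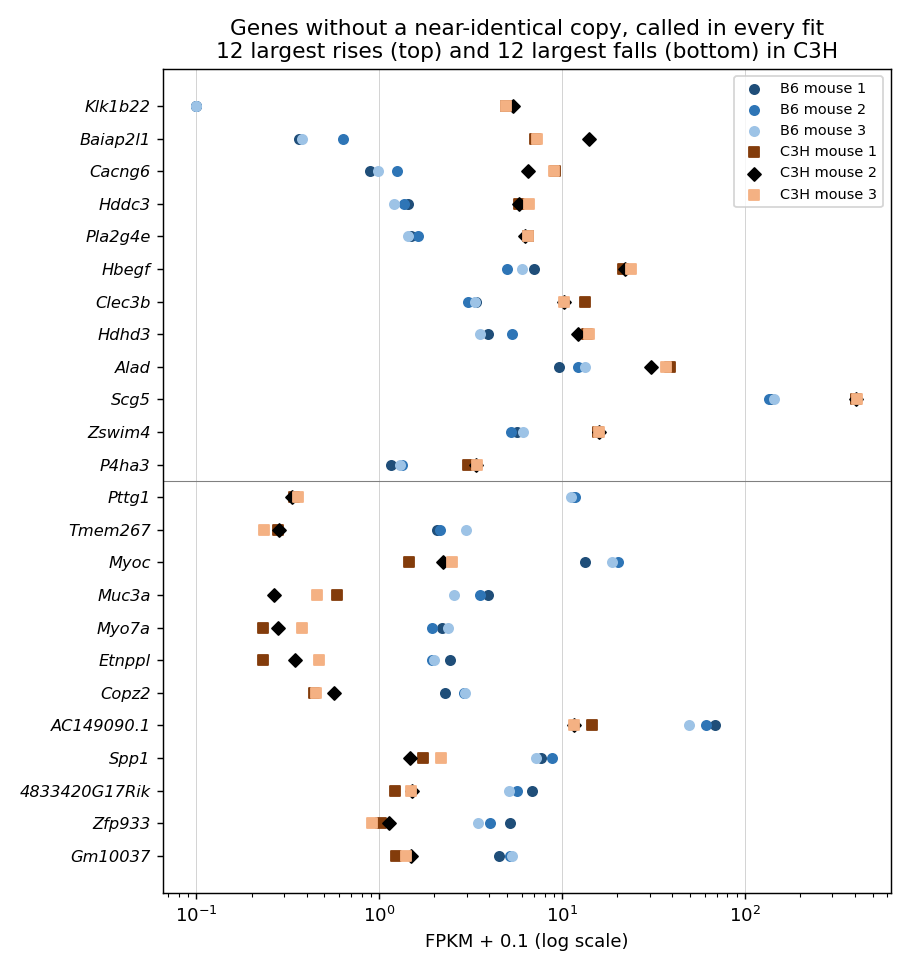
FPKM + 0.1 on a log axis in each of the 6 mice for the 12 largest rises and 12 largest falls among genes that have no near-identical copy and passed the test in every fit. Each point is 1 mouse (circles B6, squares C3H, black diamonds C3H replicate 2). In each of these genes the C3H mice lie apart from the B6 mice, from Klk1b22 with 0 FPKM in B6 to Scg5 with over 400 FPKM in C3H. Genes with a mean under 1 FPKM in 1 strain had to differ to be included.

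Fits that left out 1 mouse other than C3H replicate 2 gave 156 to 180 calls, and 153 to 177 of the 507 genes were among them. In 119 genes, 47 higher and 72 lower in C3H, the call and the direction held in all 21 alternative fits, the 6 fits without 1 mouse among them. Of these, 83 had no near-identical copy elsewhere in the annotated transcripts. The genes of this group that are named only in the next 2 paragraphs and were outside the naming rule were picked after their values were seen.

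Some of the stable rises are given by name. Scg5, which encodes the chaperone 7B2 of a prohormone convertase, was the most abundant of these, at 138.4, 134.4 and 144.5 FPKM in B6 and 403.9, 401.5 and 411.2 in C3H. Its rise was 1.54 ± 0.07 (limma adjusted p = 2.94e-05), and the C3H mice lay within a narrow range. Hbegf, the gene of an EGF receptor ligand, rose from 5.91 ± 1.01 to 22.4 ± 1.11 FPKM (SD, n = 3). Clec3b, the gene of the plasminogen-binding protein tetranectin, rose from 3.14 ± 0.17 to 11.2 ± 1.82 FPKM. Alad, an enzyme of haem synthesis, and Hdhd3 are neighbours on chromosome 4 and rose together, Alad from 11.6 ± 1.90 to 35.3 ± 4.48 FPKM and Hdhd3 from 4.17 ± 0.94 to 13.2 ± 0.94. Pla2g4e, a cytosolic phospholipase A2 family gene, rose from 1.41 ± 0.10 to 6.33 ± 0.15 FPKM. Casp9, the initiator caspase of the mitochondrial death pathway, stood at 4.159, 4.183 and 4.659 FPKM in B6 and at 10.61, 8.957 and 10.44 in C3H. Other stable rises were Rgcc at 1.14, Ndn at 0.97 and the lysosomal thioesterase gene Ppt1 at 0.56 on the log2 scale.

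Some of the stable falls are given in the same way. Myoc, the myocilin gene, stood at 13.14, 19.98 and 18.53 FPKM in B6 and at 1.347, 2.14 and 2.41 in C3H, a fall of -3.08 ± 0.24. Spp1, which encodes osteopontin, fell from 7.77 ± 0.80 to 1.69 ± 0.35 FPKM, and Etnppl, an ethanolamine-phosphate lyase gene found in astrocytes, from 2.02 ± 0.28 to 0.247 ± 0.12. Myo7a, an unconventional myosin gene best known from sensory hair cells, fell from 2.07 ± 0.21 to 0.196 ± 0.07 FPKM. Copz2 and Vps41, both genes of vesicle traffic, fell by 2.47 and fell by 1.11 on the log2 scale. Ide, the insulin-degrading enzyme, fell by 0.62, and Xrcc5, which encodes the Ku80 end-joining protein, fell by 0.66. Slc39a2, a zinc transporter gene, fell from 2.91 ± 0.29 to 0.815 ± 0.10 FPKM. Etnppl, Myo7a, Copz2 and Slc39a2 had a C3H mean under 1 FPKM. They were included only through their B6 values and so had to differ.

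Genes with a near-identical copy were called more often than genes without one. A copy was counted when another gene's longest transcript matched over at least 300 bases and at least 50% of the shorter transcript at 90% identity or more. Of 1229 such genes 97 were called (7.89%), 33 higher and 64 lower, against 410 of 10321 without a copy (3.97%). For 3 of the pairs a stretch of the coding sequence is shown beside the copy, since it shows how few bases tell the genes apart. The sequences are GENCODE M21 transcripts on GRCm38, printed 5′ to 3′ over 120 bases, and capitals mark the bases that differ. Rpl26, a protein of the large ribosomal subunit, lies on the plus strand of chromosome 11, with the stretch at chr11:68903179-68903298. Its processed pseudogene Gm15772 lies on chromosome 5, plus strand, at chr5:3236599-3236718. Their aligned 435 coding bases differ at 2 positions, both in the stretch.
Rpl26: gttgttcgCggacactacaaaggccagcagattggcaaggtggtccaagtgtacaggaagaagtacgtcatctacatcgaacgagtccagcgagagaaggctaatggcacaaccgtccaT
Gm15772: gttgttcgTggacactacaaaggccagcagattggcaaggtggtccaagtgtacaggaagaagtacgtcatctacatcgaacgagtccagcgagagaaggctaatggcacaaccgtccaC
Psmb5, a catalytic subunit of the proteasome, lies on the minus strand of chromosome 14 (chr14:54616633-54616752) and its copy Gm3375 on the plus strand of chromosome 7 (chr7:3181361-3181480), with 8 differing bases of 792.
Psmb5: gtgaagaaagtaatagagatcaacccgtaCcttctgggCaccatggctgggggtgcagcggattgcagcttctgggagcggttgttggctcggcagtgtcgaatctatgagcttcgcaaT
Gm3375: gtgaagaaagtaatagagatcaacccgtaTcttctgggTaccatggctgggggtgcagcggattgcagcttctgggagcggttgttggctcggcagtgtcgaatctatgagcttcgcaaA
Eno1, the enolase gene of glycolysis, lies on the plus strand of chromosome 4 (chr4:150246599-150246718) and its copy Gm4735 on the plus strand of chromosome 2 (chr2:80837837-80837956), with 5 differing bases of 1302.
Eno1: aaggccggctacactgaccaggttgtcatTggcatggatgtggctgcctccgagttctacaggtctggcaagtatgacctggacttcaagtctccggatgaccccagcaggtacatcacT
Gm4735: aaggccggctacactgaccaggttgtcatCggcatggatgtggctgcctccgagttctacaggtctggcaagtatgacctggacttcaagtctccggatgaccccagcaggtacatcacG

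In these pairs the gene was lower in C3H and the copy was higher. Rpl26 stood at 145.4, 151.7 and 151.2 FPKM in B6 and at 5.879, 5.218 and 4.71 in C3H, while Gm15772 stood at 0.893, 0.791 and 0.75 in B6 and at 307, 290 and 325 in C3H. Neither overlapped between strains. To set a gene and its copies on one scale, FPKM was multiplied by gene length in kilobases, which gives reads scaled to library size only, and summed. Rpl26 with its 9 copies stood at 216 ± 5.09 in B6 and 143 ± 7.19 in C3H, a log2 ratio of -0.60 in place of -4.83 for the gene alone. Psmb5 alone had a ratio of -0.74, and with Gm3375 and a further copy it was 0.05 (90.5 ± 3.91 against 93.9 ± 6.72). Eno1 alone had a ratio of -0.58, and with its 5 copies -0.07 (1010 ± 56.9 against 962 ± 111).

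Other pairs also moved in opposite directions. Eno1b, a copy of Eno1, had the largest rise of the coding genes on the log2(FPKM + 0.1) scale, from 0.1907, 0.1691 and 0.5876 to 96.6, 74.72 and 80.51 FPKM, a log2 difference of 7.79 ± 0.34. On the ratio of means without the added 0.1, Gm4737 had a larger log2 ratio (8.41 against 8.05). Hmga1b rose by 6.33 ± 0.25 while its parent Hmga1, a chromatin architectural gene, was called lower at -0.80, and both together had a log2 ratio of 0.29. Atp6v0c, the proton-channel subunit of the vacuolar ATPase, fell from 48.46, 46.69 and 49.1 to 5.763, 5.536 and 5.055 FPKM. Together with its copies it had a ratio of 0.28. Gm4737 and its parent Ahcy together had -0.14, Pcna-ps2 and Pcna -0.15, and Gm20075 and Btf3l4 -0.11. Ahcy, Pcna and Btf3l4 were each called lower, at -1.26, -0.59 and -0.62. Tuba1c, an alpha-tubulin gene, was another of the largest rises, but its abundant copies Tuba1a and Tuba1b were both at -0.05 and not called (limma adjusted p = 0.8 and 0.825).

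**Figure D2:**
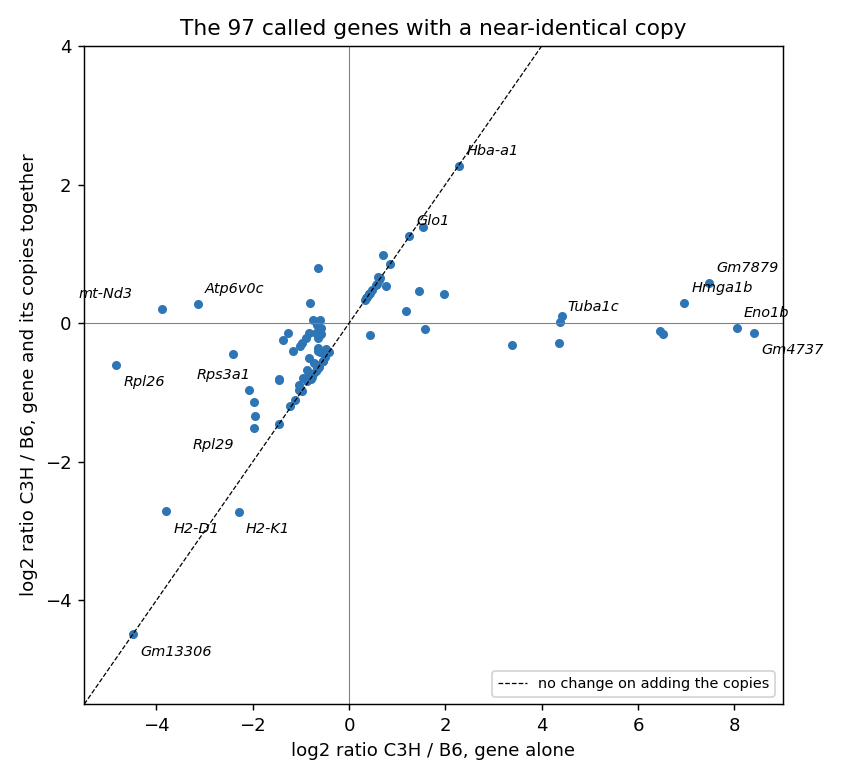
The log2 ratio of C3H to B6 for each of the 97 called genes with a near-identical copy, for the gene alone (horizontal) and for the gene and its copies summed (vertical), with no error bars. Points on the dashed line kept their ratio, as Hba-a1, Glo1 and Gm13306 did, and points near 0 on the vertical axis, such as Eno1b, Hmga1b, Gm4737, mt-Nd3 and Atp6v0c, lost most of it.

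Over the 97 genes the log2 ratio shrank to less than 0.5 of its size in 36 and turned sign in 14. Of 39 genes over 2-fold alone, 27 were within 2-fold together and 12 were not. In 5 of the 36, Tuba1c among them, the gene made up under 10% of the summed reads in both strains, so that the sum says little about it. Glo1, which detoxifies methylglyoxal, kept its ratio of 1.26 together with its copy. Reads of processed pseudogenes made up 0.051 to 0.054% of the reads in B6 and 0.195 to 0.207% in C3H. Counting transcribed ones too, 1234 were tested, and 114 were called higher and 18 lower in C3H. Single-gene values of these families are uncertain where reads could be assigned to either copy.

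The called genes also differed in base composition. Those called higher had a median GC content of 54.5% and those called lower 47.9%, against 50.2% for all 11550 genes. The genes were ranked by GC content into 5 bins. In the bin lowest in GC, 13 were called higher and 76 lower, with a median log2 difference of -0.26. In the bin highest in GC, 91 were called higher and 32 lower, with a median of 0.17. Spearman's correlation between difference and GC content across 11539 genes was 0.525, as a description, since the genes share the same 6 libraries.

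**Figure D3:**
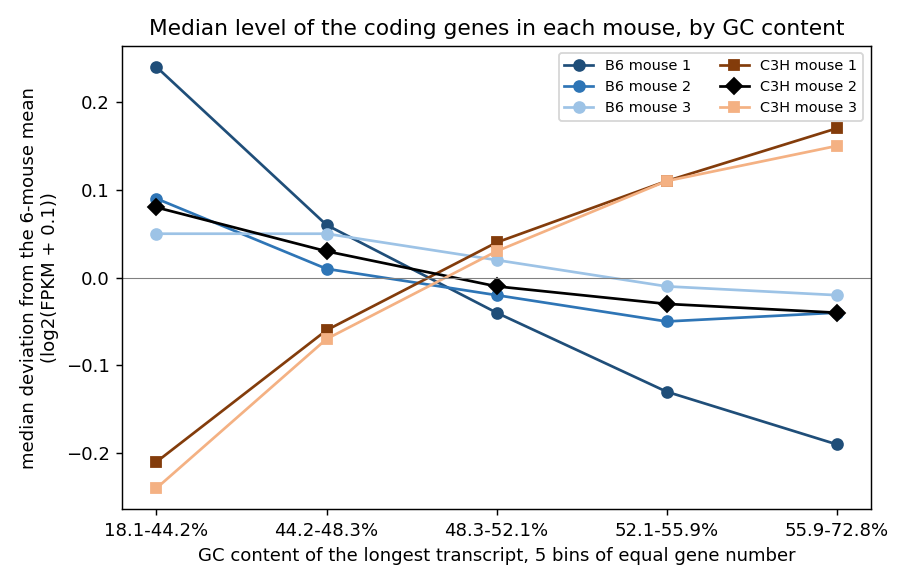
Median deviation of each mouse from the 6-mouse mean on the log2(FPKM + 0.1) scale, for genes in 5 bins of GC content. C3H replicates 1 and 3 rise from -0.21 and -0.24 in the lowest bin to 0.17 and 0.15 in the highest, while C3H replicate 2 falls from 0.08 to -0.04 beside B6 replicates 2 and 3, and B6 replicate 1 falls from 0.24 to -0.19.

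C3H replicate 2 stood with the B6 mice in this respect. When each mouse's GC trend was removed, 352 genes were called higher (3.05%) and 368 lower (3.19%), of which 432 were shared with the 507 calls. The correlation with GC was then 0.004, and the lowest and highest bins held 51 and 75 higher calls beside 54 and 81 lower ones. The part of this trend in single calls was not tested, and values with the trend removed are given below where they change a statement.

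Without C3H replicate 2 the calls rose to 530 higher (4.59%) and 689 lower (5.97%). Of these 1219 genes, replicate 2 lay beyond the whole B6 range, on the C3H side, in 953 (78.2%). On a scale from 0 at the B6 mean to 1 at the mean of the other 2 C3H mice its median position was 0.45. It was 0.31 in the 676 genes of lower GC and 0.58 in the 543 of higher GC. When any of the other 5 mice was left out in the same way, that mouse lay beyond the other strain in 97.7 to 99.4% of the genes, at a median position of 0.93 to 1.01. Those sets held only 156 to 180 genes and were called with replicate 2 in the fit. They are thus unlike the 1219 genes, and the positions are not a like comparison.

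Replicate 2 lay more than 0.5 on the log2 scale above both other C3H mice in 451 genes and below both in 144. By the same measure the other 5 mice gave 47 to 176 genes above and 31 to 196 below. B6 replicate 1 had the most of these, 176 and 196, so at this cut only the count above was particular to C3H replicate 2. At a cut of 1 on the log2 scale it was not. C3H replicate 2 then had 7 genes above and 28 below, against 3 to 18 above and 5 to 36 below in the other 5 mice. The highest gene of C3H replicate 2 is given first. It was Lars2, the mitochondrial leucyl-tRNA synthetase, at 152.2 FPKM against 22.2 and 24.37 in C3H replicates 1 and 3 and 17.62 to 28.18 in B6. Some structural RNA rows were also high in this mouse. The rRNA row CT010467.1 read 1751 FPKM against 373.3 to 738.8 in the other 5 mice, and Rn7sk, the RNA that holds the elongation factor P-TEFb inactive, read 82.01 against 11.47 to 20.64. The rRNA share of its reads was 0.438% against 0.094 to 0.182%, while its snoRNA share, 0.003%, lay within the 0.002 to 0.004% of the others and its mitochondrial rRNA share, 0.567%, was below the B6 mice. Among its lowest genes were the striatal genes Drd2, the D2 dopamine receptor, at 4.214 FPKM against 12.97 and 20.49, and Rgs9 at 3.408 against 12.38 and 15.81. B6 replicate 3 was as low, with 4.256 FPKM of Drd2 and 4.906 of Rgs9. The mouse was chosen for attention because it had already been seen to stand apart, so these values are a description.

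Medians of the brain cell and cortical layer lists ran from -0.17 for oligodendrocytes to 0.1 for their precursors, against 0.023 over all coding genes. Of these markers 3 of 13 and 5 of 9 lay above 0, and the median for layers 5 and 6 was -0.12. No gene passed the test among the 12 excitatory neuron, 13 interneuron, 14 astrocyte, 13 oligodendrocyte, 9 oligodendrocyte precursor and 8 mural cell markers measured, nor among those of cortical layers. The share called over all coding genes was 4.39%, so the absence of calls in lists this short says little. Nrgn, a calmodulin-binding protein of excitatory neurons, averaged 1534 FPKM in B6 and 1599 in C3H (limma adjusted p = 0.846). Glul, the glutamine synthetase of astrocytes, averaged 529.1 and 494.8 FPKM (limma adjusted p = 0.552).

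Microglial markers gave the most calls of any brain cell list, with 1 of 15 higher and 3 lower in C3H, against 4.39% called of all coding genes. Fcrls, a scavenger receptor-like gene of microglia, stood at 14.29, 14.51 and 15.86 FPKM in B6 and at 5.548, 4.82 and 4.99 in C3H, a fall of -1.52 ± 0.09 (limma adjusted p = 9.87e-05). C1qb fell by 0.63 ± 0.07 and C1qc by 0.58 ± 0.08, both subunits of the complement initiator C1q. The remaining C1q gene, C1qa, stood at 60.47, 59.9 and 65.65 FPKM in B6 and at 75.01, 65.25 and 80.02 in C3H and was not called (limma adjusted p = 0.176). Aif1, the microglial protein Iba1, rose by 0.79 ± 0.12. The receptors Cx3cr1, at 9.896 to 12.78 FPKM in B6 and 10.61 to 10.97 in C3H, and P2ry12, at 8.626 to 12.48 and 9.517 to 11.37, overlapped between the strains. The median of the list was -0.06, against 0.023 over all 11550 genes.

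Of 14 endothelial markers, Ly6a, the surface antigen Sca-1, fell from 10.24, 8.506 and 9.074 to 3.166, 3.341 and 3.763 FPKM. Mfsd2a, the lipid transporter of the blood-brain barrier, rose by 0.39 ± 0.08 and was not called once the GC trend was removed (limma adjusted p = 0.0846). Red blood cell genes were called higher in C3H in 3 of 5 cases, against 2.20% of all coding genes. Hba-a1, an alpha-globin gene, rose from 58.53, 55.25 and 68.54 to 309.3, 245.5 and 338.7 FPKM, and Hbb-bs and Alas2, the erythroid enzyme that starts haem synthesis, rose by 1.49 ± 0.19 and 1.06 ± 0.13. The near-identical Hba-a2 differed within C3H, at 1.369, 78.15 and 82.2 FPKM. Hbb-bt, the other adult beta-globin gene, stood at 23.4, 23.5 and 27.8 FPKM in B6 and at 5.27, 2.2 and 69.3 in C3H and was not called (limma adjusted p = 0.465). Both alpha-globin genes together had a log2 ratio of 2.27 and both beta-globin genes 1.39, and the summed list ran from 217 to 254 FPKM in B6 and from 633 to 1010 in C3H. The amount of blood left in the tissue was not measured.

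**Figure D4:**
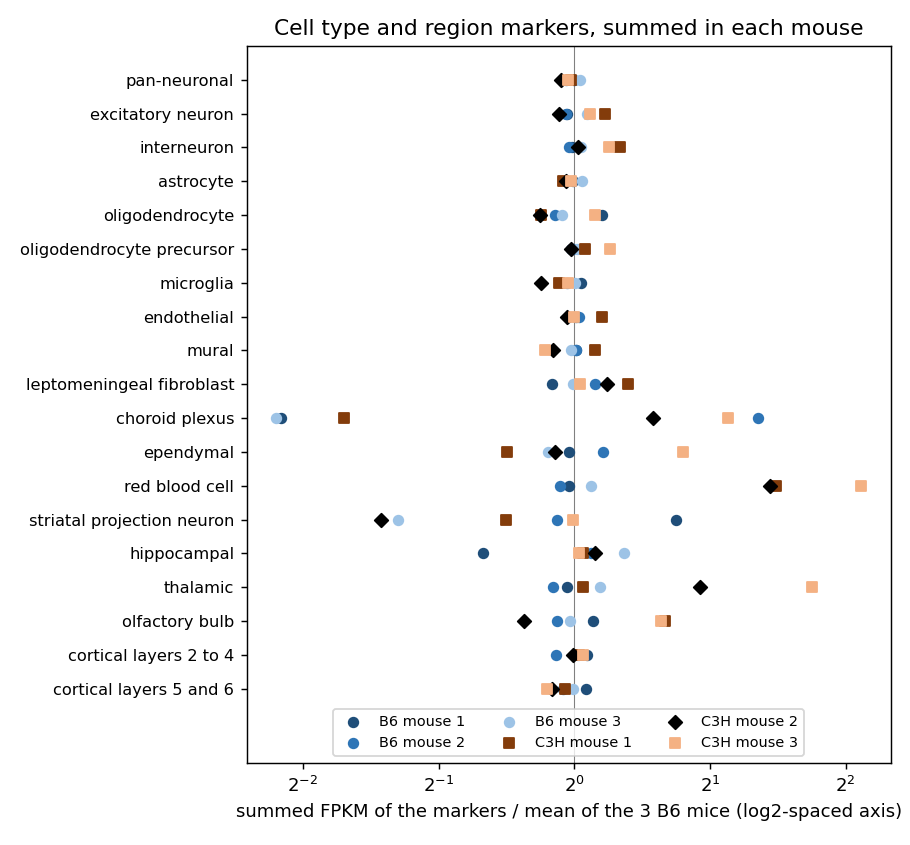
Summed FPKM of the markers of each cell type or region in each mouse, relative to the mean of the 3 B6 mice (axis spaced by log2, circles B6, squares C3H, black diamonds C3H replicate 2). Brain cell types lie near 1 in all mice, and red blood cell markers lie above 1 in all 3 C3H mice. Choroid plexus and striatal markers spread widely within both strains, thalamic ones within C3H and hippocampal ones within B6 (38.6 to 79.3 FPKM).

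Of the cell lists, the thalamic one had the next largest median, 0.78 over 5 genes, none of them called. Its sum was 19.7, 18.3 and 23.3 FPKM in B6 and 21.3, 38.7 and 68.9 in C3H, so C3H replicate 1 lay within the B6 range. The choroid plexus gene Ttr ran from 61.75 to 748.8 FPKM in B6 and from 88.59 to 644.4 in C3H.

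Genes of antigen presentation by MHC class I, which displays peptides of the cell's own proteins, had lower values in C3H. Of 9 measured, 5 were called lower and none higher, against 2.19% of all coding genes called lower. The median of the list was -0.61. H2-D1 fell from 14.53, 12.29 and 14.56 to 1.146, 0.7404 and 1.079 FPKM and H2-K1 from 11.14, 11.11 and 9.95 to 2.493, 1.801 and 2.312, both without overlap. These heavy-chain genes are highly similar to each other, and H2-D1 with its 3 copies kept a log2 ratio of -2.71. They also vary between strains, and the reference assembly comes from B6. Whether C3H reads of these genes aligned less well was not tested. H2-T23 and H2-T22 fell by 0.85 ± 0.11 and 0.61 ± 0.09. B2m, the shared light chain with no copy found, fell from 85.92, 77.61 and 88.01 to 59.16, 58.09 and 56.2 FPKM and was not called with the GC trend removed. The MHC class II genes H2-Ab1 and H2-Eb1 also fell, H2-Eb1 from 2.689, 3.011 and 2.774 to 1.407, 1.22 and 1.045 FPKM. Of 12 interferon-stimulated genes only Igtp was called, lower by 0.71 ± 0.13, and the median of that list was 0.02.

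Nuclear genes of respiration lay slightly higher in C3H as groups, though few passed singly. Over all coding genes 53.2% lay above 0 and 4.39% were called. The median was 0.15 for 36 complex I subunits, of which 29 were above 0 and none was called. It was 0.23 for 16 genes of complexes II and III, 0.24 for 16 cytochrome c oxidase subunits and 0.19 for 17 ATP synthase subunits. Of these, Uqcc3, an assembly factor of complex III, rose from 24.59, 25.27 and 27.28 to 40.64, 31.69 and 36.61 FPKM, Atp5j2 rose by 0.38 ± 0.07, and Cox6a2 fell from 9.609, 11.8 and 12.56 to 6.637, 7.741 and 7.426. With the GC trend removed the medians were 0.13, 0.18, 0.16 and 0.19, and 2 complex I genes were called lower. Without C3H replicate 2 instead, 4 complex I genes were called higher. These lists hold short genes, with median lengths of 1026 to 2039 bases, and with both GC and length trends removed the medians were 0.05, 0.09, 0.04 and 0.12. In the same libraries C3H replicate 2 sat lowest of its strain in these lists, with a median deviation of -0.02 for complex I against 0.14 and 0.09 in the other 2.

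Transcripts of the mitochondrial genome were mostly lower in C3H as deposited, with 12 of 13 coding genes below 0. Among all coding genes 53.2% lay above 0. With the GC trend removed 5 of the 13 lay above 0, among them mt-Co3, which was above 0 as deposited too. The mitochondrial chromosome took 3.81, 3.5 and 3.24% of the reads in B6 and 2.65, 2.73 and 2.45% in C3H. Of the 13 genes 3 were called lower and 1 higher, against 2.19% and 2.20% of all coding genes. mt-Nd5 fell from 1248, 1031 and 941.4 to 673.7, 687.1 and 570.7 FPKM, and was not called with the GC trend removed or in any fit without 1 mouse. mt-Nd4l fell from 14.98 ± 3.68 to 5.82 ± 1.28 FPKM, and mt-Co3 rose from 41.67, 40.23 and 33.76 to 73.81, 59.7 and 54.42. The mt-Co3 call was lost in every fit without 1 mouse. With its near-identical copy Gm28437, mt-Co3 summed to 57.4 ± 3.1 in B6 and 114 ± 20.4 in C3H, in reads scaled to library size. The log2 ratio was 0.98 together and 0.7 for mt-Co3 alone. Its value alone is uncertain where reads could be assigned to either. mt-Nd3 fell by 3.88 ± 0.16, but with its nuclear copy Gm28438 it had a log2 ratio of 0.20.

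Ribosomal protein and proteasome genes also lay slightly higher in C3H as groups. Over all coding genes 2.20% were called higher and 2.19% lower, and 53.2% lay above 0, which is the background for each list here. Of 76 cytosolic ribosomal protein genes 2 were higher and 6 lower, although 63 lay above 0 and the median was 0.20. With the GC trend removed 12 were called higher and 7 lower, and without C3H replicate 2 it was 6 higher and 4 lower. All 8 called genes had near-identical copies, as did 62 of the whole list, and the called falls were Rpl26, Rps3a1, Rpl29, Rpl21, Rps2 and Rpl3. Rps2 alone had a log2 ratio of -0.65 and together with its 63 copies 0.79. Of 76 mitochondrial ribosomal genes 4 were higher and 3 lower, with a median of 0.18. Mrpl14 rose from 16.36, 18.78 and 22.2 to 41.5, 31.81 and 35.51 FPKM, and Mrpl35, without a copy, fell from 6.762, 6.292 and 7.662 to 3.246, 3.291 and 3.064. Of 35 proteasome genes 3 were higher and 1 lower. Their median was 0.15. With GC and length trends removed the medians of the cytosolic ribosomal, mitochondrial ribosomal and proteasome lists were 0.11, 0.11 and 0.06. Psmb10, a subunit of the immunoproteasome, rose by 0.56 ± 0.10. Fars2, the mitochondrial phenylalanyl-tRNA synthetase, rose by 1.05 ± 0.13, one of 2 rises and 1 fall among 34 tRNA synthetases, whose median was 0.06. That of 52 translation initiation factors was 0.05.

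**Figure D5:**
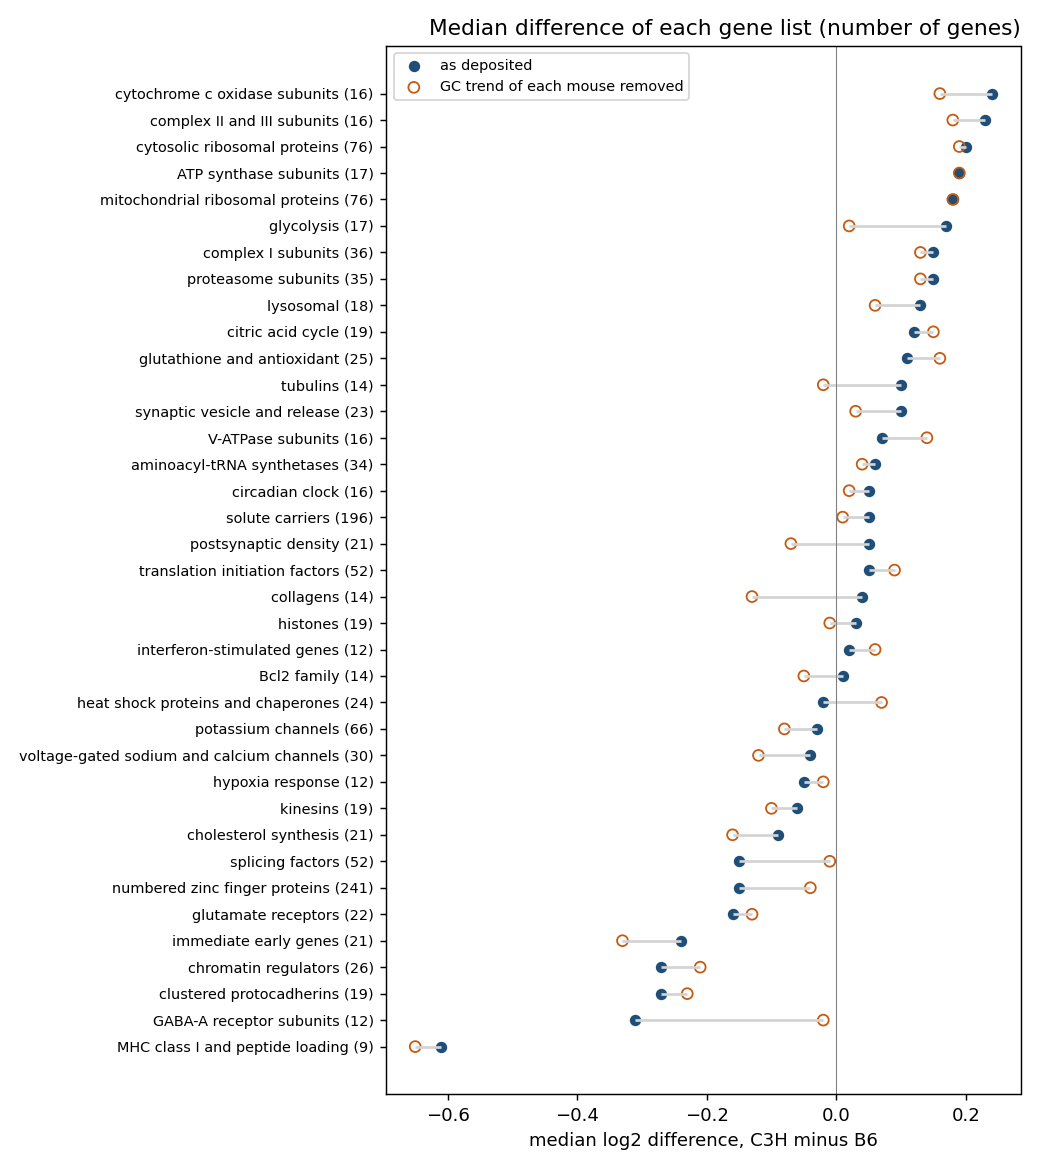
Median log2 difference, C3H minus B6, of each of the 37 pathway or family lists, as deposited (filled) and with each mouse's GC trend removed (open); numbers in brackets are the genes measured. Respiration and ribosomal lists stay between 0.13 and 0.24, MHC class I lies lowest at -0.61 and -0.65, and the GABA-A receptor list moves from -0.31 to -0.02.

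The synaptic lists below are short and had 0 or 1 call each. Such counts cannot be told apart from the 4.39% called over all coding genes. Syt1, the calcium sensor of fast transmitter release, fell from 172.3, 170.1 and 187.2 to 82.9, 86.46 and 76.78 FPKM, a fall of -1.10 ± 0.08 (limma adjusted p = 0.00027), and was the only one of 23 vesicle and release genes called. Grin2b, the NMDA receptor subunit, fell from 9.991, 9.914 and 10.29 to 6.043, 6.598 and 5.169 FPKM, the only one of 22 glutamate receptor genes. Gabra2, the alpha-2 subunit of the GABA-A receptor, rose from 7.149, 7.583 and 5.952 to 16.79, 19.12 and 13.58 FPKM. The other 11 GABA-A subunits were not called, and the median of the list was -0.31, or -0.02 with the GC trend removed. None of 21 postsynaptic density genes was called. Of 66 potassium channel genes only Kcnh7 was, lower by 0.95 ± 0.19, and it lost its call in every fit without 1 mouse. With the GC trend removed it was not called either, while 6 other potassium channel genes were called lower. Slc24a2, a sodium-calcium-potassium exchanger gene, fell from 33.75, 29.63 and 30.85 to 14.64, 22.03 and 15.4 FPKM, with C3H replicate 2 nearest to B6. It was 1 of 5 solute carriers lower and 4 higher out of 196.

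Cholesterol synthesis genes gave 3 falls and no rise among 21, against 2.19% of all coding genes called lower. Sc5d, a sterol desaturase, fell by 0.78 ± 0.09, Cyp51, the lanosterol demethylase, by 0.59 ± 0.08 and Insig1, which holds the sterol sensor in the endoplasmic reticulum, by 0.74 ± 0.07. Insig1 stood at 25.04, 24.7 and 24.17 FPKM in B6 and 15.39, 13.68 and 15.11 in C3H. Sc5d and Cyp51 did not overlap between strains either, and all 3 were called in every alternative fit. The median of the list was -0.09, with 8 genes above 0. Without C3H replicate 2 the median was -0.01, and 1 gene was called higher and 5 lower. In 11 of the 21 genes the strains did not overlap, against 33.8% of all coding genes, and the summed list stood at 360, 350 and 361 FPKM in B6 and at 330, 303 and 312 in C3H. Cst3, the secreted protease inhibitor cystatin C, was the most abundant called gene of the lysosomal list, at 1031, 1058 and 1160 FPKM in B6 and 1616, 1430 and 1728 in C3H. Its call (0.55 ± 0.12, limma adjusted p = 0.0467) held in 1 of the 6 fits without a mouse.

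Of 241 numbered zinc finger genes, most of them DNA-binding regulators, 2 were higher and 8 lower, near the 4.39% called over all coding genes, with a median of -0.15, or -0.04 with the GC trend removed. Zfp933 fell from 5.101, 3.908 and 3.341 to 0.9185, 1.027 and 0.8085 FPKM, and Zfp605 rose from 3.05, 2.634 and 2.509 to 7.175, 10.6 and 6.321. The C3H mean of Zfp933 was under 1 FPKM, so it was included only through its B6 values and had to differ. None of 26 chromatin regulators and none of 21 immediate early genes, which neurons switch on with activity, was called. The medians of these lists were -0.27 and -0.24. With the GC trend removed 3 immediate early genes were called lower. Dbp, a clock output gene, rose by 0.73 ± 0.13, the only call of 16 clock genes, and was not called with the GC trend removed (limma adjusted p = 0.0525). None of 14 genes of the Bcl2 family and none of 12 of the hypoxia response was called. With 4.39% called over all coding genes, the absence of calls in the short lists of this paragraph says little. The strains did not overlap in 5 of the Bcl2 family and 6 of the hypoxia genes, against 33.8% of all coding genes. Without C3H replicate 2, 1 Bcl2 family gene was called higher and 1 hypoxia gene lower.

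Called genes lay on every autosome, on the X chromosome and on the mitochondrial one. Chromosome 17, which carries the MHC, had the highest share among nuclear chromosomes, 7.96% or 44 of 553, and the X chromosome the lowest, 1.32% or 5 of 379. In windows of 2 Mb the most calls lay at 24 to 26 Mb of chromosome 17, with 8 of 69 genes, among them Atp6v0c, Rps2 and Rnps1. At 44 to 46 Mb of chromosome 7 all 7 calls of 69 genes were higher, among them Klk1b22 and Dbp. At 100 to 102 Mb of the same chromosome 6 of 26 genes were higher, among them Ucp2 and P4ha3, and Mrpl48 was lower.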

How the data were processed

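RNA sequencing reads (150 bp, paired-end) came from cortex of 3 male mice per strain. Adapter trimming (Cutadapt), counting per gene (HTSeq) and testing (DESeq2) were done for the study by a sequencing company, and the submitters' processing notes also name STAR. Versions, the genome build and the counting strand are not given in the sources used here. The authors deposited FPKM values, 1 column per mouse. GENCODE M21 held 54495 of the table's 54532 gene identifiers, with unchanged GRCm38 coordinates for 53585.

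FPKM times gene length was a whole multiple of 1 step per library for 100% of values (tolerance 0.01), which gave the reads used for depth and voom. Intervals and the floor of 3 reads cover counting error only. Since the file holds FPKM, no count model was run. Genes averaging 0.1 FPKM or more were tested with limma 3.58.1 (R 4.3.3, two-sided, trend) on log2(FPKM + 0.1), a scale on which changes of low genes look smaller than they are. GC content was taken from each gene's longest transcript (11539 genes), and its trend was removed per library by lowess (span 0.3). Copies were searched with blastn 2.17.0, and figures drawn with matplotlib 3.10.9. The steps were tested on simulated data.

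The genes and the 56 lists (19 of cells, 37 of pathways or families) were chosen with earlier results of these data known. The genes named were the 10 largest rises and falls, the 5 most abundant calls per direction, up to 4 calls per list (the most abundant gene where none was called) and the 8 genes per direction in which C3H replicate 2 lay farthest from its strain. The alternatives were other pseudocounts and filters, rescaling, all 3 strains, no trend, voom or library weights, a replicate block, GC and length trends, and leaving out each mouse. The combination of GC removal without C3H replicate 2, and the sums over copies, were added after seeing the data. Replicate numbers did not pair the mice.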

Additional observations from a re-analysis of the deposited data

How the results depend on the processing

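The directions held better than the counts. All 86 named genes that were called kept their sign in the 21 alternatives, and 46 were called in each. The count of 507 was within 1.5 times its size with other pseudocounts, filters and rescaling (365 to 613) and with the GC trend removed (720). With GC and length removed the falls numbered 391. It rose to 800 (429 higher) with only these genes in the fit, 823 (444 higher) with all 3 strains, 937 (433 higher, 504 lower) with voom weights and 1637 (866 higher, 771 lower) with weights per library. It dropped to 232 (92 higher, 140 lower) without a trend and to 192 (75 higher, 117 lower) with the replicate block. The replicate numbers come from the sample titles, and deviations of mice with the same number correlated at -0.213, -0.114 and -0.034, so the numbers were not used to pair. Leaving out 1 mouse gave 156 to 1219 calls (63 to 530 higher, 87 to 689 lower), the upper ends without C3H replicate 2. Without it and with the GC trend removed, 714 were called. The cause of these moves was not tested, beyond the fewer samples of the latter fits.

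Some genes that were not called turned sign on the log2 scale. With the GC trend removed, then also length, then GC without C3H replicate 2, the values were -0.12, -0.21 and -0.07 for Nrgn, -0.06, -0.2 and -0.05 for Sst, -0.02, -0.09 and -0.02 for Olig1 and 0.07, 0.05 and 0.12 for Bnip3l. Kif5a gave -0.01 and -0.05 in the first and last of these. With weights per library Ttr gave -0.02 and Col6a1 0.07. Without 1 mouse the ranges were -0.02 to 0.17 for Nrgn, -0.06 to 0.24 for Mbp, -0.1 to 0.06 for Vtn, -0.96 to 0.05 for Penk, -0.06 to 0.17 for Parm1 and -0.21 to 0.14 for Col6a1. Genes of few reads were limited by depth, so that a fold against 0 reads is only a bound. With 3 mice a strain, small differences could be missed.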
